A study of Mus musculus with 2 samples.

Results

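Opposite-strand transcripts are noncoding RNAs named after the gene that they face: the symbol of a gene followed by "os" marks a transcript made from the other strand of the same locus. The set described here holds the noncoding genes whose mouse symbol ends in "os", with or without a number, and that were listed above 0 in a library of sorted gastric parietal cells from mice on a high fat diet (HFD) or in the matching control library. Of 280 such genes in the deposited tables, 71 were listed in at least 1 library and 209 were at 0 in both. These 71 are the members, out of 16037 genes of every kind listed in either library. The members were selected on their level above 0, and Rab26os and Cdrt4os1 were already known from these data to stand out in the HFD library, so the contrast of the libraries is given below as a description.

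Parietal cells, which make the acid of the stomach, were sorted from the stomachs of C57BL/6 mice. One group of mice had been fed an HFD and the other was the control. Each diet is represented by 1 library of total RNA depleted of ribosomal RNA, with no poly(A) selection named, so no difference could be tested and all values below compare 2 libraries. The composition of the diets, the time on them, the number, age and sex of the mice, any pooling of mice and the sorting markers stand in none of the sources used here.

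Antisense transcription is common in mammalian genomes. Some opposite-strand RNAs start near the promoter of the facing gene and run away from it, as a divergent pair, and others start inside the gene or beyond its end and overlap it. Several known antisense RNAs act on the gene they face, through chromatin or by pairing with its RNA, while many have no known function, and some serve as hosts from which small nucleolar RNAs (snoRNAs) are cut. Most long noncoding RNAs are expressed at lower levels than messenger RNAs.

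All values are in RPKM, reads per kilobase of gene and per library depth in M reads. The deposited values were read as log2 of RPKM from the spacing of low values, and nothing in the labels states this. On that reading, genes at or below 1 RPKM are listed as 0. A 0 then stands for any level up to that floor, and no fold is given against it. With 1 step in the spacing of low values taken as 1 read, the depth of the HFD library came to about 25.5 M reads. That of the control library came to 9.84 M. At 1 RPKM, a 1 kb gene thus rests on about 25.5 reads in the first and 9.84 in the second. For genes listed in both libraries, ratios are RPKM in the HFD library over RPKM in the control library, with an approximate 95% interval from the estimated reads that covers counting error only. For all members together, differences are also given as log2(RPKM + 1) in the HFD library minus the same in the control library, which understates the ratio of low genes. Parietal markers were abundant, with 17 of 18 listed in the HFD library and 18 of 18 in the control library and a summed level of 14295 against 11440 RPKM, and only Cckbr, the gastrin receptor gene, was at 0 in the HFD library. That list counts Gif, the intrinsic factor gene, which chief cells express in mice, at 397 and 494 RPKM. Markers of chief cells (48186 against 106338 RPKM summed) and pit cells (36056 against 14515 RPKM) were abundant too, so a transcript cannot be assigned to parietal cells. Pgc made up most of the chief cell sum, at 45624 and 102292 RPKM. Pga5 and Chia1 were lower in the HFD library too, Bhlha15 was slightly higher at 10.1 against 8.24 RPKM, and Lipf was at 0 in both. Among pit markers, Gkn1 (21736 against 5021 RPKM), Gkn2 (8091 against 3406 RPKM) and Muc5ac (538 against 411 RPKM) were higher, and Tff1 and Psca were similar. In such bulk RNA, fewer cells of a type and less RNA per cell cannot be told apart.

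The 2 members that stood out in the HFD library are shown first by the sequence in front of their starts. RefSeq promoter windows on GRCm38.p6, the assembly also called mm10, run from 250 bases before to 50 bases after the start, and 44 of the 71 members matched an entry, with 54 windows. The windows are printed 5′ to 3′ in the direction of transcription, with matches to the searched motifs in capitals. Rab26os has its window at chr17:24528001-24528300 on the plus strand and Cdrt4os1 at chr11:63004085-63004384 on the minus strand.
Rab26os: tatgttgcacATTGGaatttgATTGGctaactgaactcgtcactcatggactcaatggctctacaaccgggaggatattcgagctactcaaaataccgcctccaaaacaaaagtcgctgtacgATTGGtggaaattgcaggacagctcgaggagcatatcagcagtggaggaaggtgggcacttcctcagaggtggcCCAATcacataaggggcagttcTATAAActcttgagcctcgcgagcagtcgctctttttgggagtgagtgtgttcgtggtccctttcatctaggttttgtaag
Cdrt4os1: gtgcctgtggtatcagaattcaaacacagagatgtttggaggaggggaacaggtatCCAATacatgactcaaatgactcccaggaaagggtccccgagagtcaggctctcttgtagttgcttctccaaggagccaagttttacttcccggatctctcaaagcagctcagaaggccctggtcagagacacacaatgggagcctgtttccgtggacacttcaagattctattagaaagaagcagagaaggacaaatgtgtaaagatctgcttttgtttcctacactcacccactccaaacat

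The motifs searched on both strands were TATAAA, the letters of a TATA box, CCAAT of the box of that name, GGGCGG of the GC box, TGACGTCA of the cyclic AMP response element and TCAAGGTCA of the oestrogen-related receptor element. The Rab26os window holds TATAAA with its first base at position -31 from the start and CCAAT at -53. It also holds CCAAT on the other strand, written ATTGG, at -240, -229 and -127. No match overlaps another. The Cdrt4os1 window holds CCAAT at -194 and none of the others. TATAAA was found in 13.6% of the 32851 RefSeq windows of all genes and in 7.41% of the member windows, and CCAAT in 37.4% and 35.2%. GGGCGG was found in 35.7% of all and 35.2% of member windows, TGACGTCA in 1.79% and 1.85%, and TCAAGGTCA in 0.423% and 1.85%, the last being 1 member window. The median GC content was 52.7% over all windows and 54.8% over the member windows, against 48.3% in the Rab26os window and 47.0% in the Cdrt4os1 window. A match of letters is not a bound site.

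The members were low-level transcripts with 1 exception. Of these, 44 were listed in HFD, from 1.05 to 625 RPKM with a median of 2.93 RPKM. In the control library 57 were listed, from 1.02 to 42.8 RPKM with a median of 1.94 RPKM. Rab26os was the highest in both, and the next in each library stood at 25.1 RPKM (Cdrt4os1, HFD) and 11.8 RPKM (Rap1gapos, control). At 5 RPKM or more there were 12 members in HFD and 10 in control. The summed level of all members was 829 against 217 RPKM. Rab26os held 75.4% and 19.8% of those sums, and without it they were 203 and 174 RPKM, so the difference of the sums lay mostly in 1 gene. The median number of reads behind a member was about 127 in HFD and 28.6 in control, where 6 members rested on fewer than 10 reads.

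**Figure D1:**
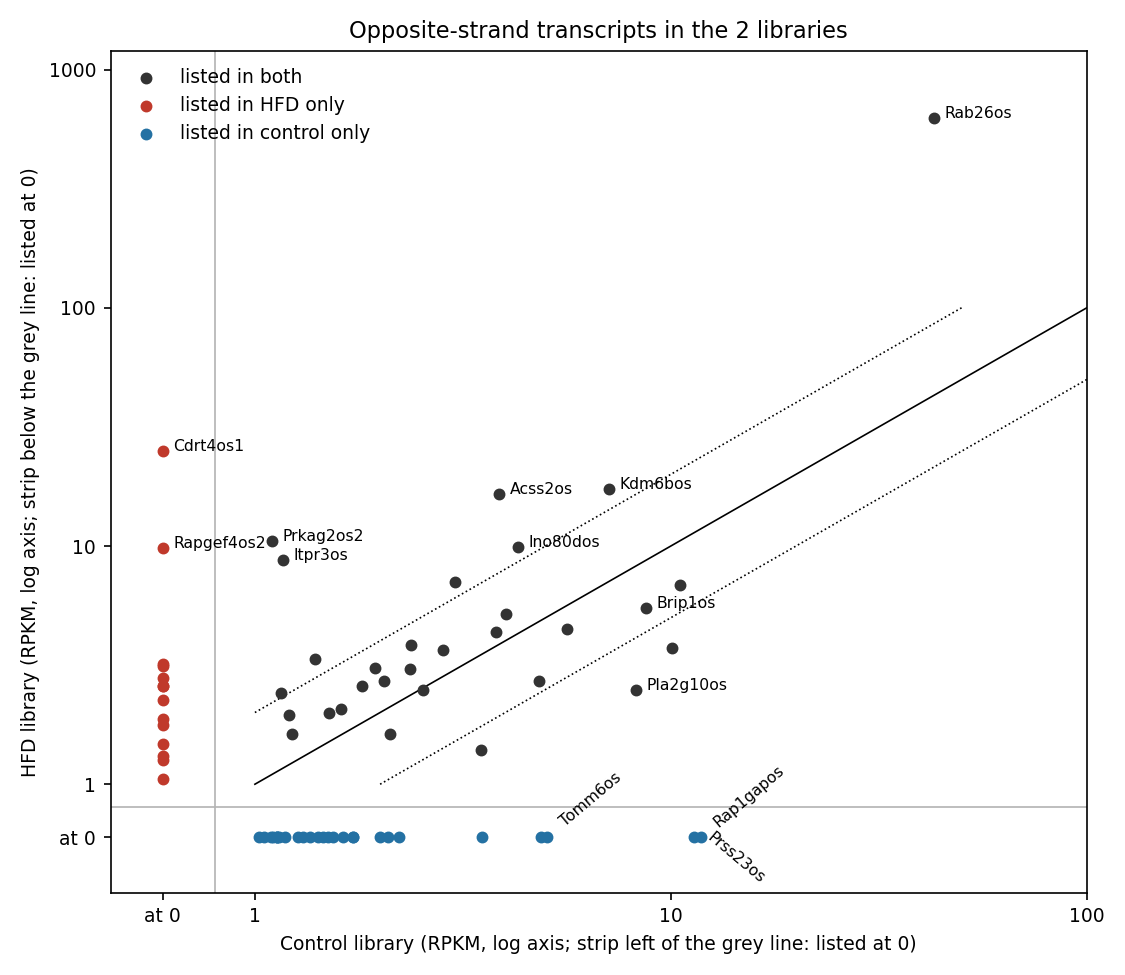
Level of each of the 71 opposite-strand transcripts in the control library (horizontal, RPKM, log axis) and the HFD library (vertical, RPKM, log axis), with genes listed at 0 drawn in a strip beyond the grey lines; the solid line marks equal levels and the dotted lines a 2-fold difference. Rab26os stands alone at 625 against 42.8 RPKM, and most other members lie below 10 RPKM in both libraries.

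Rab26os (ENSMUSG00000093565, biotype antisense) lies at chr17:24528248-24528744 on the plus strand, with 497 exon bases, inside an intron of Rab26. Rab26 encodes a small GTPase of secretory vesicles and granules. The level of Rab26os was 625 RPKM in HFD and 42.8 RPKM in control, from about 7921 and 209 reads. It was far higher in the HFD library, with a ratio of 14.6 (12.7 to 16.9). Its rank among all genes was 167 in HFD and 1345 in control. Among the 484 listed genes of biotype antisense none stood above it in the HFD library and 3 did in the control library. Ratios at least as high were found for 58 of the 12439 genes listed in both libraries, Rab26os included.

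Its neighbours did not follow it. Rab26 itself was at 0 in HFD and at 1.06 RPKM in control, so the antisense gene exceeded its partner in both. No exon base of Rab26os lies in an exon of Rab26 or of another coding gene of the minus strand. Traf7, which encodes a ubiquitin ligase and starts just upstream of Rab26os on the minus strand, stood at 11.4 and 13.6 RPKM, a ratio of 0.836 (0.768 to 0.912). Pkd1, the gene of polycystin-1 further along the plus strand, stood at 3.25 and 6.71 RPKM, and Caskin1 was at 0 in both.

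Rab26os also holds a snoRNA gene on its own strand. Snord60, a C/D box snoRNA of the class that guides 2′-O-methylation of RNA, lies at chr17:24528476-24528553 and takes 78 bases, or 15.7% of the exon bases of Rab26os. It is shown here because reads from these bases can be assigned to either gene. In transcript Rab26os-201, of 477 bases, it covers bases 210 to 287, and transcript Rab26os-202, of 298 bases, does not contain it. The stretch chr17:24528436-24528593 on the plus strand (GRCm38, from the GENCODE M21 transcript) has Snord60 in capitals.
Rab26os with Snord60: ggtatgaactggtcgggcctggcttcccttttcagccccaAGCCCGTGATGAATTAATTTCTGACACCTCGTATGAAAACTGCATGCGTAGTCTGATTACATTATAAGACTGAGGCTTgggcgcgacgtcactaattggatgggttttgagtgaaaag

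Within the capitals, TGATGA of the C box begins at base 7 of the 78, and CTGA, the letters of the D box, begins at bases 21, 53 and 70. Snord60 was at 0 in HFD and at 228 RPKM in control, from about 175 reads, so the snoRNA and its host went opposite ways. Of 79 snoRNA genes at 200 RPKM or more in the control library, 9 were at 0 in the HFD library. Of 127 at that level in the HFD library none was at 0 in the control library. Whether reads of Snord60 were assigned to Rab26os in the HFD library was not tested; no source used here states how reads were counted.

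**Figure D2:**
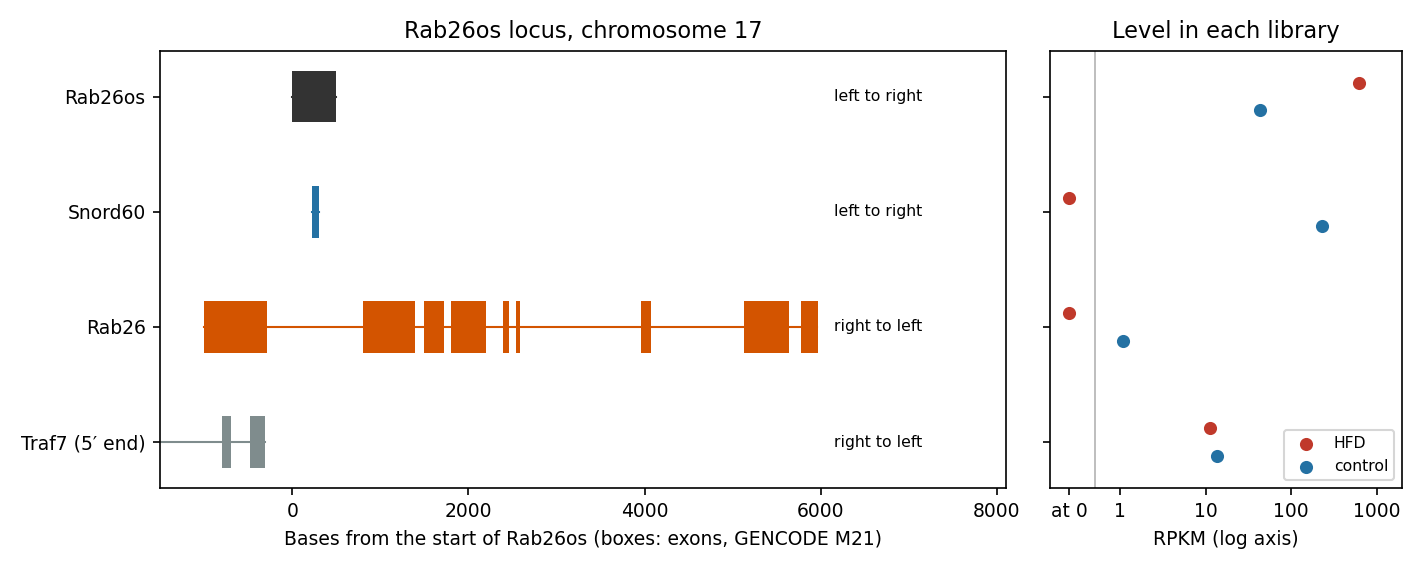
Left, the exons of Rab26os, Snord60, Rab26 and the 5′ end of Traf7 in bases from the start of Rab26os, with the direction of transcription at the right of each; right, the level of each gene in the 2 libraries (RPKM, log axis, genes listed at 0 left of the grey line). Rab26os is at 625 RPKM in the HFD library, where Snord60 and Rab26 are both listed at 0.

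Cdrt4os1 (ENSMUSG00000087604) lies at chr11:62990453-63004134 on the minus strand, with 4 exons and 2866 exon bases. It stood at 25.1 RPKM in the HFD library, from about 1836 reads, and was listed at 0 in the control library. The floor of 1 RPKM corresponds to about 28.2 reads for a gene of this length in the control library. Of 992 genes listed in the HFD library only, 18 stood at or above its level, Cdrt4os1 included. The span of Cdrt4os1 overlaps the 3′ end of Cdrt4, but the pair shares no exon base. Cdrt4 was at 0 in both libraries, as were Cdrt4os2, the second antisense gene of the locus, and Tekt3, a neighbouring gene of a microtubule protein. Cdrt4os1 was therefore the single listed gene among these 4.

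Rapgef4os2 (ENSMUSG00000085001) lies at chr2:72224688-72232302 on the minus strand, inside Rapgef4, the gene of a Rap exchange factor activated by cyclic AMP. It stood at 9.85 RPKM in the HFD library, from about 531 reads, and at 0 in the control library, where the floor is about 20.8 reads. Rapgef4 was higher in the HFD library as well, at 5.28 against 2.13 RPKM, a ratio of 2.48 (2.07 to 2.98). That difference was 1.01 on the log2(RPKM + 1) scale, and 0.51 with the 20 most abundant genes left out of the library totals. Rapgef4os1, in the same gene, stood at 1.88 and 0, and Rapgef4os3 was at 0 in both. The next gene, Map3k20, was lower in the HFD library at 1.96 against 3.07 RPKM. Of the exon bases of Rapgef4os2, 15.9% lie in exons of Rapgef4.

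Among members listed in both libraries, 6 further genes of 5 RPKM or more were over 2-fold higher in the HFD library, while their partners were within 2-fold as deposited. With the 20 most abundant genes left out of the library totals, 3 of the 6 were no longer past 2-fold: Kdm6bos, Ino80dos and Bcas1os1 were then at 0.61, 0.51 and 0.49 on the log2(RPKM + 1) scale, and the partner Bcas1 was at -1.13. The partners are a mixed group of metabolic, signalling and chromatin genes. Acss2os (ENSMUSG00000086529, chromosome 2) stood at 16.6 and 3.86 RPKM, a ratio of 4.29 (2.80 to 6.77). Acss2, which encodes the cytosolic acetyl-CoA synthetase, stood at 8.18 and 6.36 RPKM. The antisense gene was below its partner in the control library and above it in the HFD library. Of the exon bases of Acss2os, 53.3% lie in exons of Acss2, and reads from these were not told apart.

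Prkag2os2 (ENSMUSG00000087314, chromosome 5) stood at 10.5 and 1.10 RPKM, a ratio of 9.51 (5.88 to 17.7). Prkag2, the gene of a regulatory subunit of the energy sensor AMPK, was slightly lower in the HFD library, at 6.06 against 7.41 RPKM. Itpr3os (ENSMUSG00000086898, chromosome 17) stood at 8.70 and 1.17 RPKM, a ratio of 7.44 (3.88 to 16.8). Its control level rests on only about 9.13 reads. Itpr3, which encodes a calcium release channel of the endoplasmic reticulum, was abundant and similar in both, at 44.7 and 39.2 RPKM. Exons of the partner hold 55.5% of the exon bases of Prkag2os2 and 29.3% of those of Itpr3os.

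Kdm6bos (ENSMUSG00000085178, chromosome 11) stood at 17.3 and 7.11 RPKM, a ratio of 2.43 (1.83 to 3.24). Kdm6b, the gene of a histone H3 lysine 27 demethylase, stood at 9.33 and 8.77 RPKM. Ino80dos (ENSMUSG00000084799, chromosome 1) stood at 9.93 and 4.30 RPKM, a ratio of 2.31 (1.90 to 2.82). Ino80d, a subunit gene of the INO80 chromatin remodelling complex, stood at 4.997 and 3.935 RPKM. In both pairs the antisense gene was over 2-fold higher as deposited, but not under the rescaling given above, and the chromatin gene was within 2-fold.

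Bcas1os1 and Ube4bos3 are among the 15 transcripts that were higher in the HFD library while the partner was lower. Bcas1os1 stood at 7.07 and 3.03 RPKM, a ratio of 2.34 (1.64 to 3.39), and Bcas1 at 19.8 and 29.8 RPKM, a ratio of 0.667 (0.619 to 0.718). Ube4bos3 stood at 3.35 and 1.40 RPKM, a ratio of 2.39 (1.26 to 5.39). Its control level rests on only about 10.4 reads. With the 20 most abundant genes left out of the library totals it was at 0.42 on the log2(RPKM + 1) scale. Ube4b, which encodes a ubiquitin chain elongation factor, stood at 6.65 and 14.1 RPKM, a ratio of 0.470 (0.432 to 0.512). The other antisense gene of that locus, Ube4bos1, was listed at 0 and 1.35 RPKM. Exons of the partner hold 35.5% of the exon bases of Bcas1os1 and 39.2% of those of Ube4bos3. The small partner differences above 1 for Acss2, Itpr3, Kdm6b and Ino80d depend on the scaling too: under that rescaling their log2(RPKM + 1) differences were -0.21, -0.40, -0.45 and -0.20.

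**Figure D3:**
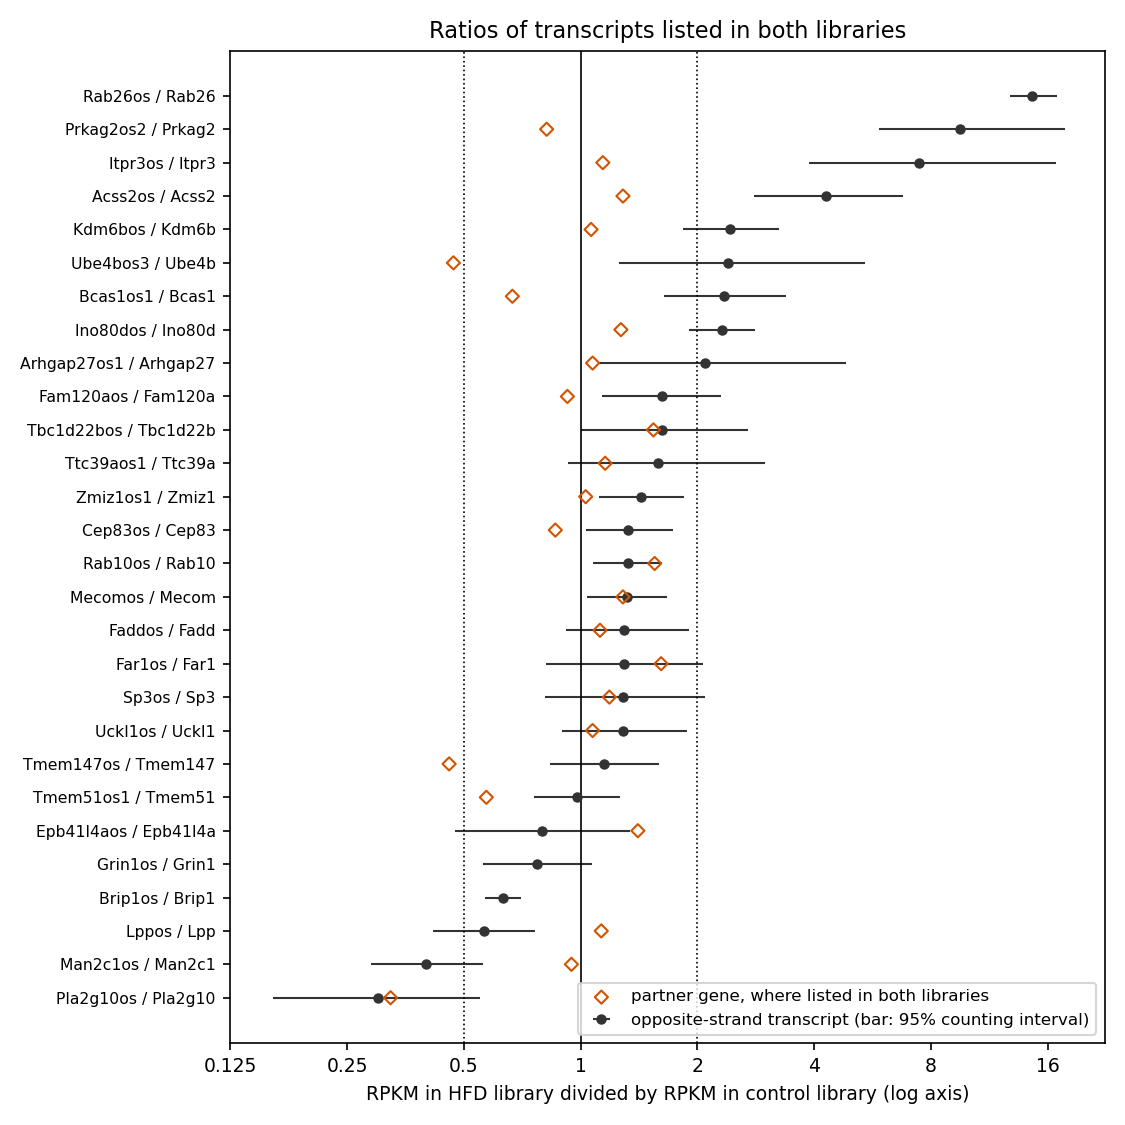
Ratio of RPKM in the HFD library to RPKM in the control library (log axis) for 28 of the 30 opposite-strand transcripts listed in both, with 95% counting intervals, and for their partners where listed in both (open diamonds). As deposited, the intervals of Rab26os, Prkag2os2, Itpr3os and Acss2os lie wholly above 2, and no interval shown lies wholly below 0.5.

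At the lower end, the members listed in both libraries held some pairs in which the partner was lower too. Pla2g10os (ENSMUSG00000086550, chromosome 16) had the lowest ratio, with 2.48 RPKM in the HFD library and 8.23 RPKM in the control library, or 0.301 (0.161 to 0.551). It rests on about 20.9 and 26.8 reads. Pla2g10, which encodes a secreted phospholipase A2, had nearly the same ratio at 5.33 and 16.5 RPKM, or 0.324 (0.266 to 0.390). The pair starts head to head and shares no exon base.

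Brip1os (ENSMUSG00000085208, chromosome 11) stood at 5.49 and 8.72 RPKM, a ratio of 0.629 (0.566 to 0.701) with the narrowest interval of the lower members. It was above its partner Brip1, the gene of a DNA repair helicase, which stood at 0 and 1.41 RPKM. No exon base of Brip1os lies in an exon of Brip1, but 20.2% lie in exons of Ints2 and Med13 on the other strand. Man2c1os was lower in the HFD library at 1.39 against 3.50 RPKM, or 0.399 (0.288 to 0.560), while Man2c1, the gene of a cytosolic alpha-mannosidase, stood at 10.7 and 11.3 RPKM. Lppos was lower too, at 2.72 against 4.82 RPKM, or 0.564 (0.417 to 0.765). Lpp, which encodes a protein of focal adhesions, stood at 9.31 and 8.24 RPKM, a difference that turns to -0.38 on the log2(RPKM + 1) scale under the same rescaling. Exons of the partner hold 21.4% of the exon bases of Man2c1os and 5.12% of those of Lppos.

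A pair of members had intervals that include 1 and are not separated by counting error. Grin1os stood at 1.63 and 2.11 RPKM, a ratio of 0.771 (0.561 to 1.07), and Grin1, the gene of the obligate NMDA receptor subunit, was at 0 in both. Epb41l4aos stood at 4.47 and 5.62 RPKM, a ratio of 0.796 (0.474 to 1.34). Epb41l4a stood at 12.8 and 9.12 RPKM, and its difference turns to -0.10 on the log2(RPKM + 1) scale under the same rescaling. Epb41l4aos is a second member that holds a snoRNA gene: Gm23639, in an intron of it on the same strand, stood at 327 and 45.7 RPKM, a ratio of 7.17 (5.54 to 9.52). Here the snoRNA was higher in the HFD library and the host was not, the reverse of Rab26os and Snord60.

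Members listed in the control library only were mostly near the floor. Of 27, 19 stood below 2 RPKM and 3 at 5 RPKM or more. Rap1gapos stood at 11.8 RPKM, from about 54.6 reads, and Rap1gap, which encodes an inactivator of the GTPase Rap1, at 25.7 and 30.4 RPKM in the HFD and control library. Prss23os stood at 11.4 RPKM, from about 178 reads, and Prss23, a serine protease gene, at 18.9 and 24.1 RPKM. Tomm6os stood at 5.05 RPKM, from about 146 reads, and Tomm6, a subunit gene of the mitochondrial import channel, at 8.36 and 12.8 RPKM. In each of these pairs the transcript was not above the floor in the HFD library and the partner was within 2-fold as deposited. Exons of the partner hold 54.3% of the exon bases of Prss23os, 7.44% of those of Tomm6os and none of those of Rap1gapos. For Tomm6os, 48.9% lie in exons of any gene of the other strand. Under the rescaling without the 20 most abundant genes Tomm6 was past 2-fold, at -1.09 on the log2(RPKM + 1) scale, and Rap1gap and Prss23 were at -0.81 and -0.91. In the HFD library the floor corresponds to about 12, 40.6 and 75.1 reads for the 3 transcripts. Of the 14 members listed in the HFD library only, 6 stood below 2 RPKM and 2 at 5 RPKM or more, Cdrt4os1 and Rapgef4os2. The members closest to the floor were Rsf1os2 at 1.05 RPKM in the HFD library and Map2k3os at 1.02 RPKM in the control library. Rsf1, a chromatin remodelling gene, stood at 2.27 and 3.14 RPKM, and Map2k3, a kinase gene upstream of p38, at 20.9 and 14.5 RPKM, though the latter turns to -0.073 on the log2(RPKM + 1) scale under the rescaling above. Genes just outside the floor are at 0, with no value to give.

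Counted over all 71 on the log2(RPKM + 1) scale, the HFD library had 21 members over 2-fold above the control and 29 over 2-fold below it, against 12.5% and 23.9% of all 16037 listed genes. The members' shares were 29.6% and 40.8%. A gene at 0 in 1 of the libraries passes this threshold by construction, which accounts for 14 of the 21 and 27 of the 29. Among the members, 19.7% were listed in the HFD library only and 38.03% in the control library only, against 6.19% and 16.2% of all genes. The median difference was -0.02, against -0.13 over all genes. Since the members were chosen as listed in either library and many lie near the floor, these counts describe low genes and support no direction.

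Over the 30 members listed in both libraries, 21 were higher and 9 lower in the HFD library, and their median log2 ratio was 0.40, against -0.02 over all genes listed in both. Over 2-fold, 9 were higher and 3 lower, where 10.6% and 13.1% of all genes listed in both passed. The counting interval lay wholly above 1 for 15 and wholly below 1 for 6, against 37.9% and 40.4% of all such genes, and it included 1 for 9. It lay wholly beyond 2-fold for 4 higher and 0 lower members, against 6.3% and 8.61%. All these counts are as deposited. With the 20 most abundant genes left out of the library totals, every log2 ratio shifts by -0.61, larger in size than the median of 0.40. The counts on each side thus depend on the scaling.

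Other noncoding classes showed like shares. Of 419 other genes of biotype antisense, 21% were higher in HFD by over 2-fold and 44.6% lower, and over the 186 listed in both the median log2 ratio was 0.27. Of 192 lincRNA genes, long noncoding RNAs that lie between genes, 30.2% and 33.9% were past 2-fold. The 61 listed partner genes had 4.92% and 16.4%, close to the 8.02% and 20.1% of all protein-coding genes. The 91 lincRNA genes listed in both had a median of 0.27 as well. As deposited, the median over genes listed in both thus had the same sign in all 3 noncoding classes. Leaving the 20 most abundant genes out of the library totals shifts each log2 ratio by -0.61. That shift is larger in size than each of the 3 medians, so their common sign depends on the scaling. Whether the classes differ was not tested.

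**Figure D4:**
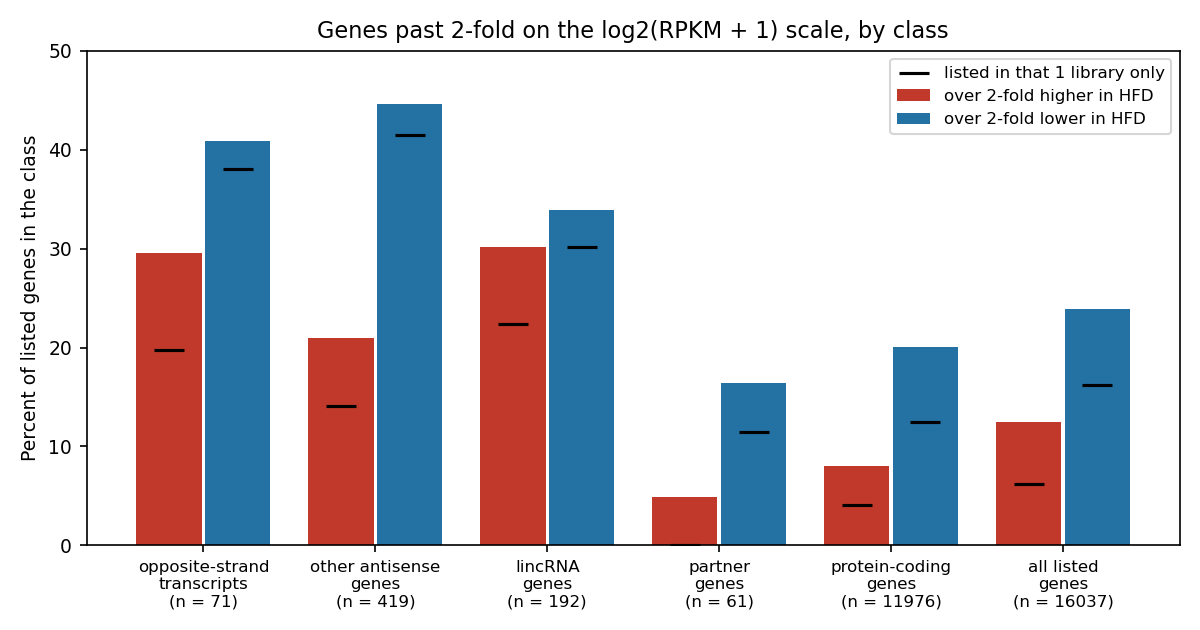
Percent of listed genes in each class that were over 2-fold higher (red) or lower (blue) in HFD, as log2(RPKM + 1); black ticks mark the percent listed in that 1 library only. The opposite-strand transcripts reach 29.6% and 40.8%, with ticks at 19.7% and 38.03%.

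All 71 members lie on the strand opposite to their partner in GENCODE M21, and 65 partners are named, 6 of them by more than 1 member. By biotype 65 members are antisense, 4 lincRNA, 1 a bidirectional promoter transcript and 1 a processed transcript. In 31 pairs the genes start head to head, and 22 of these start within 1000 bases of each other. In 32 pairs the transcript is nested in the span of its partner, and in 6 the ends overlap tail to tail. The remaining ones are Epb41l4aos, which lies beyond the end of its partner, and Nudt12os, whose span contains its partner. The 24 head-to-head members that overlap their partner had a median difference of -0.99 on the log2(RPKM + 1) scale, with 4 over 2-fold higher and 12 lower, where 12.5% and 23.9% of all listed genes passed. The 7 head-to-head members apart from their partner had one of 0.24, with 1 and 1. Nested members had a median of 0.35, with 14 over 2-fold higher and 13 lower. With most of these calls set by genes listed in 1 library, the arrangements were not tested against each other.

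Exons were shared in 55 pairs, with a median over all 71 of 12.2% of the exon bases of the transcript in exons of its partner. More than 50% was shared by 7 members. Reads from such bases cannot be told apart where strand is not used in counting, and whether it was used is stated in no source used here. In the HFD library 7 genes of the 280 had a shared fraction that, times the level of the partner, came to 5 RPKM or more. Of these 5 were listed at 0 and 1 reached that product. In the control library there were 12 such genes, 3 of them at 0 and 1 at or above the product. Arf4os, chosen after its values were seen, has 19.4% of its exon bases in exons of Arf4, which stood at 69.4 and 42.2 RPKM, and was itself at 0 in HFD and at 1.63 RPKM in control. The part of partner reads in the levels of the members was not tested. The 16 members that share no exon base with their partner had a median difference of 0.35, with 6 over 2-fold higher and 4 lower, and the 55 others one of -0.55, with 15 and 25, again beside 12.5% and 23.9% of all listed genes.

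Across pairs, the transcript and its partner were on the same side in 44 of 67 pairs with both genes listed, 19 both higher and 25 both lower. In 15 the transcript was higher and the partner lower, and in 8 the reverse. The transcript was past 2-fold in 47 of these pairs and the partner in 15, and in 34 pairs the transcript was past 2-fold and the partner within it. A gene listed in 1 library only passes this threshold by construction, which applies to many of the transcripts. Over all listed genes, 12.5% were over 2-fold higher and 23.9% lower. These are counts of pairs, so a partner with more than 1 member enters more than once. Of the 61 listed partners, each counted once, 3 were over 2-fold higher and 10 lower. Over the 27 pairs with all 4 values listed, 19 went the same way. The correlation of their log2 ratios was 0.30 (Pearson) and 0.20 (Spearman) across genes, which share their libraries and in part their bases. Levels of transcript and partner were barely related in either library, with a Pearson correlation of log2 levels of 0.08 over 39 pairs in the HFD library and -0.08 over 54 pairs in the control library. The transcript exceeded its partner in 7 and 5 of those pairs, and the median level of the transcript over that of its partner was 0.388 and 0.225.

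**Figure D5:**
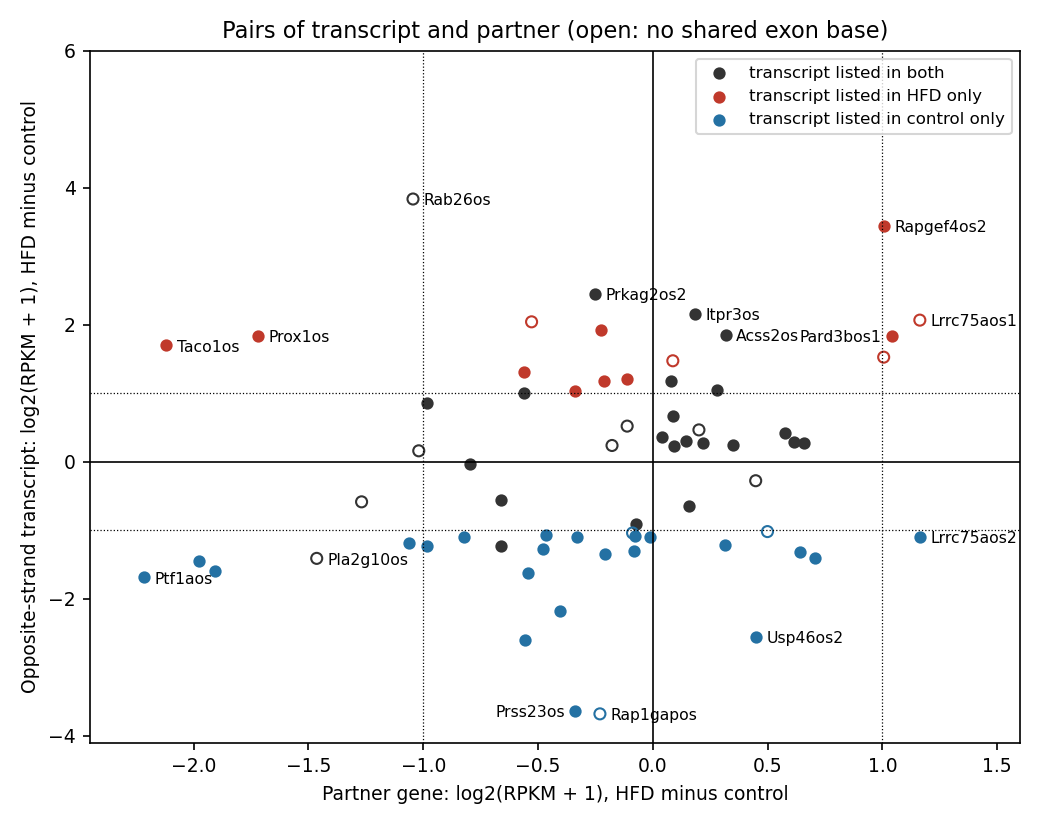
Difference of each opposite-strand transcript (vertical) against that of its partner (horizontal), both as log2(RPKM + 1) in the HFD library minus control, for the 67 pairs with both genes listed; open symbols share no exon base and dotted lines mark 2-fold. Partners lie within a narrower range than the transcripts, with 15 past 2-fold against 47.

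Some further pairs, chosen after their values were seen, show the range of patterns. Pard3bos1 was at 2.58 RPKM and 0. Pard3b, a cell polarity gene, was higher in the HFD library too, at 6.29 against 2.54 RPKM, a ratio of 2.47 (2.20 to 2.79) as deposited. Taco1os was at 2.254 RPKM and 0, but Taco1, which encodes a translational activator of a mitochondrial oxidase subunit, was lower at 2.45 against 14.0 RPKM, a ratio of 0.175 (0.134 to 0.226). Prox1os was at 2.58 RPKM and 0, while Prox1, a homeobox gene, was at 0 and 2.29 RPKM. At the Lrrc75a locus, Lrrc75aos1 was at 3.20 RPKM and 0 and Lrrc75aos2 at 0 and 1.13 RPKM, and Lrrc75a stood at 12.4 and 4.96 RPKM. The level of Lrrc75aos2 lies close to the floor, so its libraries are not told apart.

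Ptf1aos was at 0 in HFD and at 2.22 RPKM in control. Ptf1a, a transcription factor gene of the pancreas, was likewise at 0 and 3.64 RPKM. Of the exon bases of Ptf1aos, 66.5% lie in exons of Ptf1a. That share times the level of Ptf1a came to 2.42 RPKM in the control library. Whether the 2 genes share reads was not tested. Pancreatic acinar markers moved with this pair: 1 of 6 was listed in the HFD library and 6 of 6 in the control library, with a summed level of 1790 against 13409 RPKM. In the HFD library Ctrb1, Cela2a, Pnlip, Prss2 and Cpa1 were at 0 and Clps made up the sum. Their part in the result was not tested. Summed markers of other cells were lower in the HFD library as well. Endocrine markers stood at 1210 against 8284 RPKM, with 4 of 5 lower, Ghrl making up most of the sum and Gast slightly higher at 119 against 102 RPKM. Smooth muscle markers stood at 20.9 against 159 RPKM, fibroblast markers at 40.4 against 118 RPKM, endothelial markers at 4.61 against 15.4 RPKM and proliferation genes at 39.9 against 109 RPKM, all listed in both. Leukocyte markers were higher in the HFD library, at 26.0 against 6.78 RPKM, from Cd74 and H2-Aa, with Ptprc, Cd3e and Cd79a at 0 in both. The part of these cells in the members listed in 1 library only was not tested.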

How the data were processed

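Each of the 2 deposited tables holds 1 value for 38087 Ensembl genes in a column headed RPKM, per the file headers. The deposited values were read as log2 of RPKM, with genes at or below 1 RPKM as 0. This reading rests on the spacing of low values and is not stated in the labels. Bedtools 2.25.0 and the build mm10 are named, per the submitters' processing notes. Aligner, counting rule, use of strand and annotation: not given in the sources used here. Symbols, biotypes, exons and overlaps came from GENCODE M21 (36308 identifiers matched), promoter windows from RefSeq on GRCm38.p6. Partners Prosc and Ict1 were found under Plpbp and Mrpl58, and Ccdc142 was not matched.

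Depth was estimated from single-exon genes: at 12 reads or fewer, 51.1% of 184 HFD values and 36.1% of 717 control values were whole within 0.005 of a read. Some estimated numbers were not whole, such as 139.5 in HFD and 41.5 in control for Faddos. Whether the step found stands for 1 read or more was not tested. Depth and reads are therefore approximate and could be higher than given. Ratio intervals are exact conditional binomial (Clopper-Pearson) 95% intervals. Without molecular identifiers, reads are not independent molecules. The planned description for normalized values was used, with a pseudocount of 1 RPKM and a threshold of 2-fold. With 1 library per diet there was no test, and calculations were tested on simulated data. The members and lists were chosen with earlier results of these data known. Named are the 15 members of highest level, the 8 highest and 8 lowest ratios among those in both libraries, those in 1 library at 5 RPKM or more, the 2 closest to the floor, Rab26os, Cdrt4os1, Rapgef4os2, and partners; others are said to be chosen after their values were seen. Of these, 2 members and their partner are not reported here by name but are in all counts. Other pseudocounts, minimums, scalings and exon overlaps were tried. Python 3.11.15, numpy 2.4.6, pandas 2.3.3, scipy 1.17.1 and matplotlib 3.10.9 were used.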

Additional observations from a re-analysis of the deposited data

How the results depend on the processing

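No paired analysis was possible because each diet has 1 library. The numbers of members over 2-fold higher and lower (21 and 29, beside 12.5% and 23.9% of all genes) were 6 and 3 with a pseudocount of 5 RPKM (4.53% and 4.91% of all genes), 17 and 11 with a 0 entered as 1 RPKM (11.3% and 17.8%), 9 and 5 over the 18 members of at least 5 RPKM (11.03% and 14.1%), 9 and 3 over the 30 in both libraries (10.6% and 13.1%), and 6 and 4 over the 14 without exon overlap with a coding gene of the other strand. The last 3 test fewer genes. The median difference of -0.02 became 0.66, 0.40 and 0.49 in those 3 settings and 0.00385 with the HFD values rescaled to a coding median of 0, so its sign carries no result. Pairs on the same side numbered 11 of 14, 19 of 27 and 7 of 13 there. With the 20 most abundant genes left out of the library totals, a shift of -0.61 that moves the median of all genes from -0.13 to -0.63, the split was 14 higher and 33 lower (6.87% and 35.2% of all genes), the member median -0.43 and the partner median -0.65. Of 43 named members and partners, 7 reversed under that scaling, and the cause was not tested: Acss2 (-0.21), Epb41l4a (-0.10), Ino80d (-0.20), Itpr3 (-0.40), Kdm6b (-0.45), Lpp (-0.38) and Map2k3 (-0.073). None of the 43 reversed with the other scaling, with pseudocounts of 0.1 or 5 RPKM or with a 0 entered as 1 RPKM. Without Rab26os, chosen after seeing the data, the counts were 20 and 29 and the median -0.13. Shared exon bases by the longest transcript of each gene alone were found in 44 pairs in place of 55. A 0 stands for any level up to the floor in either library, so absence was not detectable. In the control library a level at the floor also rests on under 10 reads for genes below 1 kb.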
